A study of Mus musculus with 19 samples.

Results

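A set of 8 surface and membrane-associated markers of skin stem and progenitor cells (Cd34, Cd44, Lgr5, Lgr6, Lrig1, Ly6a, Ly6d and Anxa1) were followed across mouse skin tumours and normal skin. The 8 genes were taken by symbol from a table of 34807 genes, and each symbol matched 1 row. All 8 passed the filter on low counts. Each library was made from the poly(A) RNA of a whole tissue sample, and the table held 15 tumours and 4 normal skins. The tumours were 6 of genotype Ivl:BRAFV600E (Ivl), 5 of genotype K5:BRAFV600E (K5) and 4 of genotype K14:BRAFV600E (K14), and the normal skin was wild type (WT). All were female. BRAF is a kinase of the MAPK pathway. The mutated allele was switched on by a tamoxifen-inducible Cre under the Ivl, Krt5 or Krt14 promoter. The labels give the mice as 7 to 20 weeks old. Ivl is active in committed basal and suprabasal keratinocytes, while Krt5 and Krt14 are active in the basal layer and also in the outer root sheath of the hair follicle. Per the methods of the study, Ivl mice were given tamoxifen and K5 and K14 mice 4-hydroxytamoxifen on the shaved back, and the skin came from control littermates. The study described K5 and K14 tumours on the back alone but Ivl tumours also on the paws, ears and lips. It also reported a much longer time from induction to tumour onset in Ivl than in K5 and K14 mice. Promoter, agent, body site and time to onset thus cannot be told apart in these groups. K5 and K14 tumours were merged (K5/K14, n = 9).

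In hair-bearing skin these genes mark different places. Lgr5, a receptor for R-spondins that raises the response to Wnt ligands, marks the lower bulge and the hair germ. Lgr6, its relative, and Lrig1, a transmembrane inhibitor of ERBB receptors, mark the upper follicle, the isthmus and the junctional zone. CD34, a sialomucin, marks mouse bulge keratinocytes, and also endothelial cells, mast cells and many dermal fibroblasts. CD44 is the main receptor for hyaluronan and is found on basal keratinocytes and leukocytes. Ly6a (Sca-1) and Ly6d are small GPI-anchored proteins, the first of the infundibulum, interfollicular epidermis, endothelium and many blood cells, the second of stratified epithelium. Annexin A1 (Anxa1) is a calcium-dependent phospholipid-binding protein of differentiating keratinocytes and myeloid cells. A marker carries its meaning in sorted or stained cells. In RNA from a whole tissue, fewer cells of a type and less RNA per cell cannot be told apart.

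The libraries summed to 45715309 to 72609771 counts. The deposited counts had been adjusted for a sequencing batch, and 4 libraries (Ivl 1, Ivl 2, Ivl 3 and K5 1) carried a trace of it: in 96.6% of 13954 genes their average came within 0.1 (log2) of that of the remaining 15, against 64.1% for the next set of 4 and a median of 29.5% over 3876 sets. The 8 markers did the same, with the mean of the 4 libraries between 0.079 log2 below and 0.048 log2 above that of the other 15. Since that set holds 3 of the 6 Ivl tumours and no skin, the comparisons of the markers, and the counts of the lists that changed, are also given within the 15 libraries outside it. Keratinocyte markers were present in every tumour. The summed level of 6 basal genes (Krt5, Krt14, Trp63, Itga6, Itgb4, Col17a1) was 10720 to 66510 CPM (counts scaled to a common library total) in tumours and 3800 to 7768 CPM in skin, with none of them at 0. Levels below are CPM scaled by the trimmed mean of M values (TMM), so a gene can be compared between libraries. Genes are compared with each other only after division by exon length.

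Where in the genome the markers lie bears on how their reads were assigned. On GRCm38, Cd34 (ENSMUSG00000016494) lies on the plus strand of chromosome 1 from 194938819 to 194961279, and Lgr6 (ENSMUSG00000042793) on the minus strand of the same chromosome from 134983301 to 135105276. Cd44 (ENSMUSG00000005087) lies on chromosome 2 from 102811141 to 102901665, Lgr5 (ENSMUSG00000020140) on chromosome 10 from 115450311 to 115587780, and Lrig1 (ENSMUSG00000030029) on chromosome 6 from 94604529 to 94700158. Ly6a (ENSMUSG00000075602), from 74994877 to 74998031, and Ly6d (ENSMUSG00000034634), from 74762056 to 74763620, lie in the Ly6 cluster of chromosome 15. Anxa1 (ENSMUSG00000024659) lies on chromosome 19 from 20373428 to 20390944. All but Cd34 are on the minus strand, and the values count reads over all exons of a gene, UTRs included. The library kit keeps strand, but whether the counting used it is not given in the sources used here. Without strand, the 148 exon bases that Cd34 shares with its antisense neighbour Gm16897 and the 144 that Lrig1 shares with Slc25a26 could not be told apart. Of windows as long as a read (101 bases), 1.37% of those of Ly6a also occur in Ly6c1, and none of those of Cd44, Lgr5, Lgr6, Ly6d or Anxa1 occurs in another gene.

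The promoters of Cd44 and Lgr6 are shown because they belong to the markers that moved in opposite directions, Cd44 higher and Lgr6 lower in K5/K14 tumours. Each is the 250 bases before the annotated start in the RefSeq annotation of GRCm38.p6, on the minus strand, with CpG dinucleotides in capitals. Cd44 is chr2:102901666-102901915 and Lgr6 is chr1:135105277-135105526.
Cd44: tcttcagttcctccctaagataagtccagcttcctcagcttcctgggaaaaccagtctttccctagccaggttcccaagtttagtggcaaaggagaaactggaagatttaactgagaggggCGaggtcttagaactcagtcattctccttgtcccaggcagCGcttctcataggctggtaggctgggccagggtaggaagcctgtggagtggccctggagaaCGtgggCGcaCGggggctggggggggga
Lgr6: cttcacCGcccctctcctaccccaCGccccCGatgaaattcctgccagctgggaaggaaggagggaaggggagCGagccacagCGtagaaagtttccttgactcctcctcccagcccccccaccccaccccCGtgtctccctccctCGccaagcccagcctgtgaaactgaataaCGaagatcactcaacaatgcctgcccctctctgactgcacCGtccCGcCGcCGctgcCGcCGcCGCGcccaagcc
The Cd44 window holds 5 CpGs at 56.4% G and C, and the Lgr6 window 16 CpGs at 65.2%. RefSeq windows were found for 5 of the 8 markers, the others being Cd34 (6 CpGs), Lrig1 (26 CpGs) and Anxa1 (2 CpGs). None of the 5 windows holds the AP-1 letters TGANTCA, found on either strand in 6.75% of 32851 promoters, or the TCF/LEF letters CTTTGNT or their complement ANCAAAG, found in 16.0%.

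Against normal skin the markers fell into 2 sets in K5/K14 tumours. Lgr5, Lgr6, Lrig1 and Cd34 were lower, and Cd44, Ly6a, Ly6d and Anxa1 were higher, so that 8 of 8 passed an adjusted p of 0.05 (edgeR quasi-likelihood test, Benjamini-Hochberg over 32031 genes). In that comparison 62.2% of all genes passed, 23.2% higher and 38.9% lower, which is the background to the count. In Ivl tumours 5 of 8 passed (35.9% of all genes, 20.4% higher and 15.5% lower): the same 4 were higher, and of the other 4 Lrig1 alone was lower. Within the 15 libraries 7 of 8 passed in Ivl tumours (54.8% of all genes) and 8 of 8 in K5/K14 tumours (66.1%). The comparisons share the 4 skin libraries, so their values are set side by side below and not counted as separate evidence. Ly6a and Anxa1 had been picked by the study on these samples, and their direction is not independent of that choice. The median log2 fold change over all genes was -0.46 in Ivl and -0.60 in K5/K14 tumours, and DESeq2 size factors moved it to -0.59 and -0.71. With those factors the split of called genes in Ivl tumours went from 6535 higher and 4980 lower to 5712 higher and 6828 lower, while the sign of each marker stayed the same. The labels do not say that libraries of a group came from separate animals, so the p-values measure the spread between these samples, which may be technical.

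**Figure D1:**
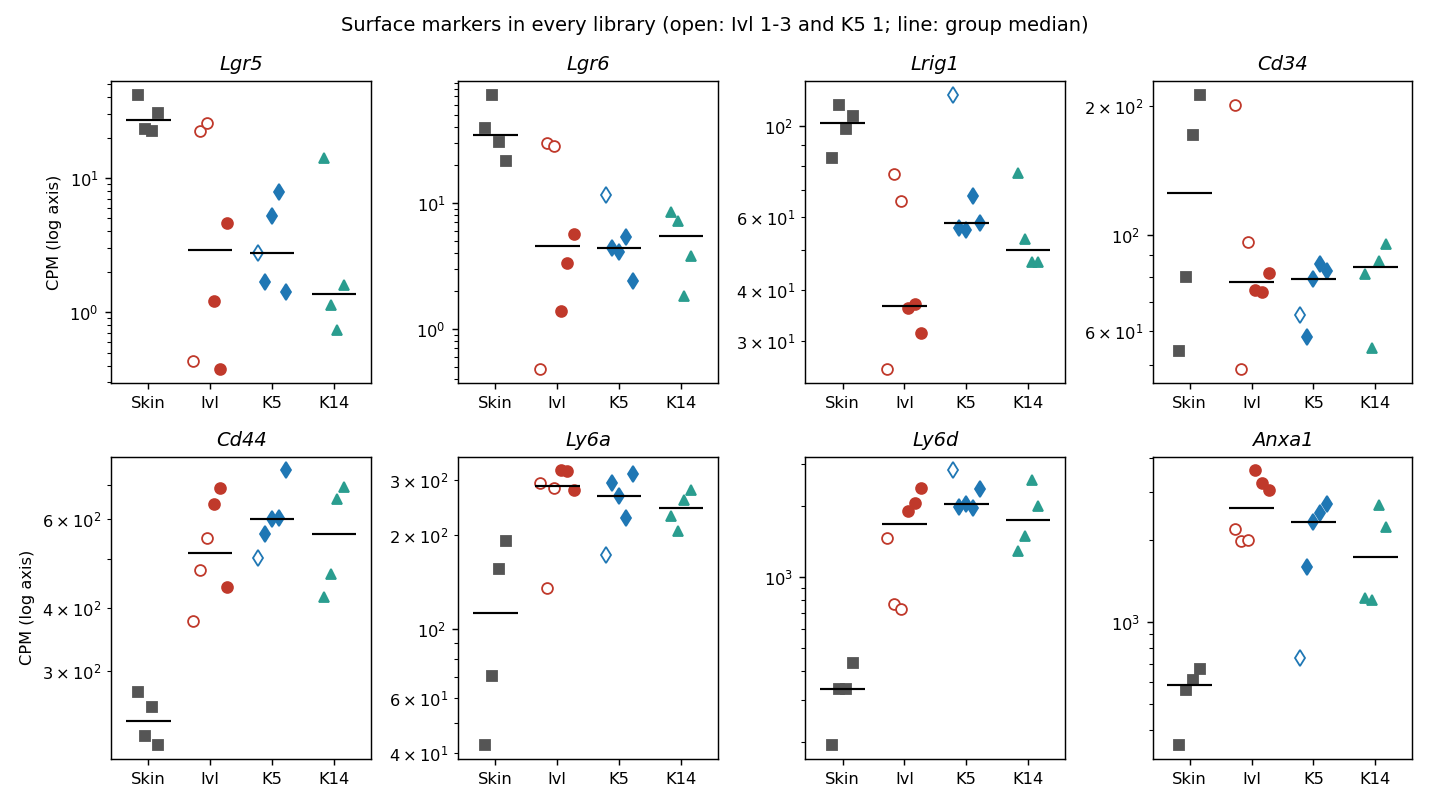
Level of each marker in CPM (log axis) in the 4 normal skins, 6 Ivl, 5 K5 and 4 K14 tumours, with 1 point per library, open points for Ivl 1, Ivl 2, Ivl 3 and K5 1, and a line at the group median. Cd44, Ly6d and Anxa1 lie above skin in all 15 tumours, while the Ivl points of Lgr5 and Lgr6 split into 2 libraries at 22.5 to 30.0 CPM and 4 at 5.68 CPM or less.

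Lgr5 was the marker with the lowest level per exon length. In normal skin it stood at 41.7, 23.1, 22.3 and 30.6 CPM. The 5 K5 tumours held 2.75, 1.67, 5.21, 7.88 and 1.43 CPM, and the K14 tumours 14.2, 1.13, 0.743 and 1.59 CPM. Every K5/K14 tumour was below every skin, as was the case for 41.4% of all genes in one direction or the other. The log2 fold change was -2.85 ± 0.92 (SE; adjusted p = 0.0126), from 29.4 ± 8.99 CPM (SD, n = 4) to 4.06 ± 4.44 CPM (SD, n = 9). In Ivl tumours, from replicate 1 to 6, Lgr5 stood at 0.430, 22.5, 25.5, 1.21, 0.375 and 4.58 CPM. Ivl 2 and Ivl 3 thus lay within the range of the skin and the other 4 below it, and the group as a whole did not pass (-1.69 ± 1.02, adjusted p = 0.184). Both libraries belong to the set of 4 with the batch trace. Among the 15 libraries outside that set Lgr5 was lower in the 3 remaining Ivl tumours by 3.83 ± 1.15 on the log2 scale (adjusted p = 0.0129).

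Lgr6 followed the same libraries. In skin it stood at 39.0, 72.0, 30.3 and 21.7 CPM. K5/K14 tumours held between 1.82 and 11.6 CPM with a median of 4.36 CPM, all below skin, and the log2 fold change was -2.90 ± 0.73 (adjusted p = 0.00269). The Ivl tumours held 0.476, 30.0, 28.3, 1.39, 3.35 and 5.68 CPM. Ivl 2 and Ivl 3 were again within the skin range and the rest below it. The group difference was -1.82 ± 0.81 and did not pass in edgeR (adjusted p = 0.0853), but it did in DESeq2 (-1.95, adjusted p = 0.0344). It also passed without Ivl 2 (-2.38, adjusted p = 0.0299), without Ivl 3 (-2.31, adjusted p = 0.037) and within the 15 libraries (-3.55 ± 0.62, adjusted p = 0.00032).

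Lrig1 was lower in both kinds of tumour by a smaller factor. Skin held 83.7, 112, 98.2 and 106 CPM. The Ivl tumours held 25.6, 76.4, 65.5, 36.1, 36.9 and 31.3 CPM, all below skin (22.2% of all genes did not overlap in this comparison), with a log2 fold change of -1.14 ± 0.28 (adjusted p = 0.00412). No Ivl tumour reached the lowest skin, but the highest of the 6 were again Ivl 2 and Ivl 3. K5 tumours held 119, 56.6, 55.9, 67.4 and 58.1 CPM and K14 tumours 77.0, 53.0, 46.7 and 46.7 CPM. K5 1 was higher than any skin and the other 8 were below all of them. The K5/K14 difference was -0.63 ± 0.26 (adjusted p = 0.0422), and the call was lost without K5 2, 3, 4 or 5, K14 2, 3 or 4, or any 1 of the 4 skins, with adjusted p up to 0.113 without skin 2. Within the 15 libraries, which leave out K5 1, it was -0.79 (adjusted p = 6.3e-05).

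Cd34 had a wide spread in skin. The 4 skins held 53.8, 79.9, 171 and 212 CPM. K5/K14 tumours lay between 54.6 and 95.4 CPM with a median of 81.1 CPM, inside the range of the skin. Their lower mean, 76.5 ± 14.0 CPM (SD, n = 9) against 129.2 ± 74.7 CPM (SD, n = 4), passed narrowly (-0.76 ± 0.32, adjusted p = 0.0468). That call rested on skin 3 and skin 4: without skin 4 it was -0.42 (adjusted p = 0.286) and without skin 3 -0.59 (adjusted p = 0.154), and it was also lost without K5 1, 2, 3, 4 or 5, K14 2 or 3, or Ivl 3, 4, 5 or 6. Ivl tumours held 201, 48.8, 96.2, 74.4, 73.9 and 81.5 CPM, with Ivl 1 far above the rest and near the highest skin. The Ivl difference did not pass (-0.43 ± 0.35, adjusted p = 0.314) but did without Ivl 1 (-0.79, adjusted p = 0.0484). The skins that were high in Cd34 were also high in markers of cells that carry CD34. Skin 1 to 4 held 70.0, 117, 296 and 373 CPM summed over 8 endothelial genes (Pecam1, Cdh5, Kdr and others) and 2483, 727, 9856 and 13620 CPM over 8 fibroblast genes. Their part in the Cd34 difference was not tested.

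Cd44 was the most even of the markers in skin, at 273, 223, 255 and 214 CPM. Ivl tumours ranged from 376 to 689 CPM with a median of 512 CPM, and K5/K14 tumours from 419 to 747 CPM with a median of 598 CPM. All 15 tumours were above all 4 skins. The log2 fold changes were 1.13 ± 0.19 for Ivl (adjusted p = 0.00011) and 1.27 ± 0.18 for K5/K14 (adjusted p = 1.2e-05), and within the 15 libraries 1.29 and 1.30.

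Ly6a was higher in tumours on average, and 2 tumours, Ivl 2 and K5 1, overlapped with skin. The skins held 42.4, 70.4, 155 and 191 CPM. Ivl tumours held 292, 135, 282, 321, 319 and 277 CPM, and all but Ivl 2 were above every skin. K5/K14 tumours ranged from 172 to 313 CPM with a median of 258 CPM, and K5 1, the lowest, was the only 1 of the 9 within the skin range. The log2 fold changes were 1.24 ± 0.32 for Ivl (adjusted p = 0.00596) and 1.12 ± 0.31 for K5/K14 (adjusted p = 0.00445). Within the 15 libraries, which hold neither Ivl 2 nor K5 1, Ly6a did not overlap in either comparison (1.41 ± 0.35 and 1.17 ± 0.30). Both tumours that had overlapped are absent there, and 3 Ivl tumours remain. How many of all genes separate from skin in that fit was not counted, so this gap cannot be weighed against a background. As for Cd34, skin 3 and skin 4 were the high ones, and they held 774 and 911 CPM summed over 8 leukocyte genes (Ptprc, Csf1r, Lyz2 and others) against 117 and 92.6 CPM in skin 1 and skin 2. The part of endothelial and blood cells in the skin level was not tested.

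Ly6d and Anxa1 had the largest increases of the 8. Ly6d stood at 194, 336, 335 and 430 CPM in skin. It ranged from 730 to 2363 CPM with a median of 1678 CPM in Ivl tumours, and from 1290 to 2816 CPM with a median of 1987 CPM in K5/K14 tumours. The groups did not overlap, with log2 fold changes of 2.25 ± 0.34 (adjusted p = 4.2e-05) and 2.67 ± 0.33 (adjusted p = 4e-06). Anxa1 stood at 352, 561, 610 and 670 CPM in skin. It ranged from 1991 to 3607 CPM in Ivl tumours and from 738 (K5 1) to 2712 CPM in K5/K14 tumours, above every skin in all 15. On the log2 scale Anxa1 rose by 2.29 ± 0.35 in Ivl (adjusted p = 4.5e-05) and by 1.81 ± 0.32 in K5/K14 tumours (adjusted p = 0.00014). Of all 32031 genes, 95.6% had a lower log2 fold change than Ly6d in Ivl tumours and 96.2% in K5/K14 tumours, and for Anxa1 the shares were 95.7% and 92.9%. The summed level of 6 suprabasal keratinocyte genes was also higher in every tumour (7614 to 53680 CPM) than in skin (2343 to 5065 CPM), with 6 of 6 genes called higher in both comparisons. As background, 20.4% of everything tested was called higher for Ivl and 23.2% for K5/K14. The part of suprabasal keratinocytes in the Ly6d and Anxa1 levels was not tested.

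**Figure D2:**
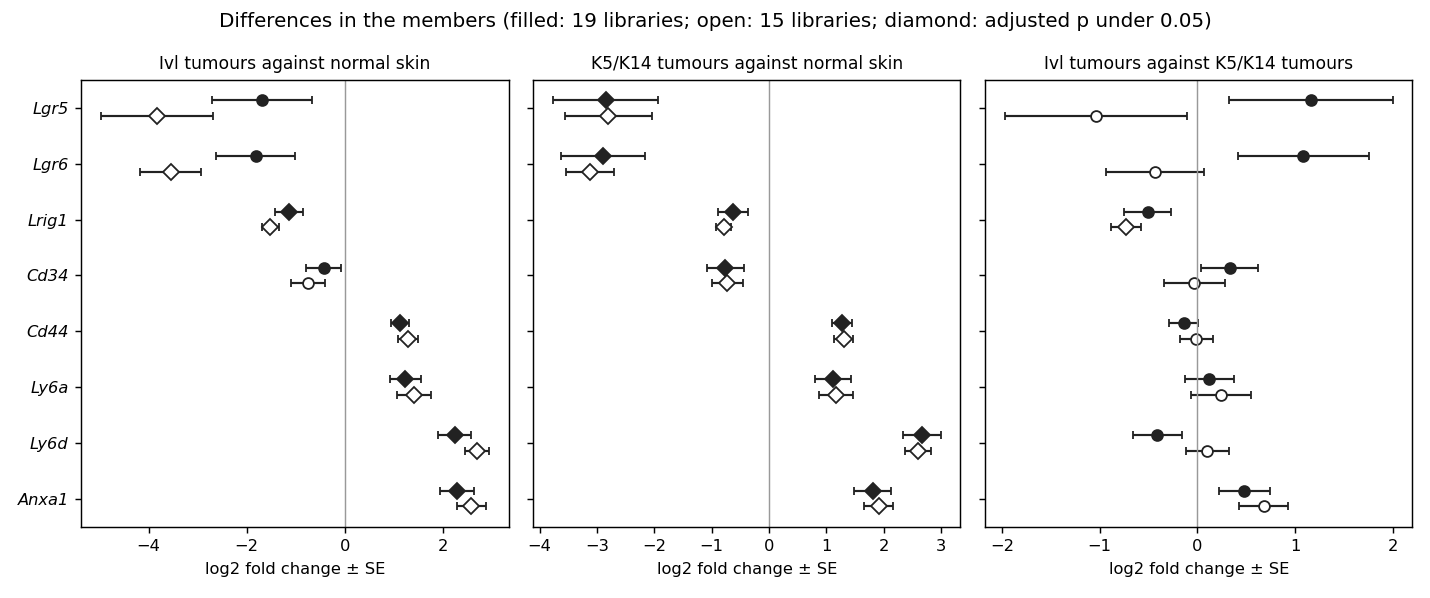
Log2 fold change of each marker with its standard error in the 3 comparisons, filled for all 19 libraries and open for the 15 outside the set with the batch trace, with diamonds where the adjusted p was under 0.05. Against skin each marker kept its sign in both fits, while between Ivl and K5/K14 tumours Lgr5 changed from 1.16 to -1.04, Lgr6 from 1.08 to -0.43, Ly6d from -0.41 to 0.10 and Cd34 from 0.33 to -0.03, with no call for these 4 in either fit.

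The comparison of Ivl with K5/K14 tumours asks whether the markers differ between tumours induced in different cell populations. It does not separate promoter, agent, body site and time to onset. None of the 8 passed, against 2.36% of all genes (756 genes, 1.77% higher and 0.593% lower in Ivl tumours), and 0 of 8 passed in DESeq2, where 2161 genes did. Lrig1 alone had an unadjusted p under 0.05 (difference -0.51 ± 0.24, adjusted p = 0.226 in edgeR). The 95% intervals are approximate: they apply a normal quantile to the standard error, so with few libraries they are somewhat too narrow. The interval was narrowest for Cd44, whose difference of -0.14 ran from -0.43 to 0.15. For Ly6a it ran from -0.37 to 0.62, for Ly6d from -0.91 to 0.09, for Anxa1 from -0.02 to 0.98 and for Cd34 from -0.24 to 0.89. For Lgr5 the interval ran from -0.47 to 2.80 and for Lgr6 from -0.22 to 2.39, so these libraries set only wide limits on both. Within the 15 libraries the intervals ran from -2.87 to 0.80 for Lgr5 and from -1.41 to 0.55 for Lgr6, and the differences of Ly6d (0.10) and Cd34 (-0.03) changed sign as well, none of the 4 passing in either fit. A p that misses the threshold does not show that the tumours were alike. Within the 15 libraries Lrig1 passed and was lower in Ivl tumours, at 31.3 to 36.9 CPM in Ivl 4, 5 and 6 against 46.7 to 77.0 CPM in the 8 K5/K14 tumours (-0.73 ± 0.15, adjusted p = 0.0457, where 0.406% of all genes passed). With the set of 4 as a covariate it was -0.83 (adjusted p = 0.0418). Anxa1 did not overlap within the 15 libraries either, at 3049 to 3607 CPM in Ivl tumours and at most 2712 CPM in the others, a separation that 4.86% of all genes showed in either direction, but it did not pass (0.68 ± 0.25, adjusted p = 0.313).

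Between K5 and K14 tumours none of the 8 markers passed, nor did any other gene (0 of 32031, 0.0%), in edgeR, and within the 15 libraries 0.0531% of all genes and no marker passed. At an unadjusted p under 0.05 there were 1945 genes in all, and DESeq2 called 201, none of them a marker. The largest marker difference was that of Lrig1, 0.35 ± 0.30 higher in K5 (adjusted p = 0.891), which carried K5 1. Against skin, taken apart in a fit with 4 groups, Cd44, Ly6a, Ly6d and Anxa1 passed in both K5 and K14 tumours, as did Lgr6 (-2.87 and -2.94). Lgr5 passed in K5 (-2.96 ± 1.15, adjusted p = 0.0386) and not in K14 tumours (-2.74 ± 1.24, adjusted p = 0.0779), a difference of -0.22 ± 1.11 between them. Without the set of 4 it passed in both (-2.86, adjusted p = 0.0274, and -2.73, adjusted p = 0.0359). Lrig1 passed in K14 (-0.84, adjusted p = 0.0366) and not in K5 tumours (-0.48, adjusted p = 0.162). Without the set of 4, and so without K5 1, Lrig1 also passed in both (-0.84, adjusted p = 0.0004, and -0.75, adjusted p = 0.00082). Cd34 passed in neither, with all libraries or with the 15.

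Set per kilobase of exon, the order of the markers was nearly the same in skin and tumours. In skin it ran Ly6d (435 CPM per kb), Anxa1 (188), Ly6a (95.2), Cd44 (35.6), Lrig1 (17.9), Cd34 (17.7), Lgr6 (5.95) and Lgr5 (2.86 CPM per kb). In K5/K14 tumours the same order held, from 2761 CPM per kb for Ly6d, 659 for Anxa1, 206 for Ly6a and 86.0 for Cd44 to 11.6 for Lrig1, 10.5 for Cd34, 0.795 for Lgr6 and 0.396 CPM per kb for Lgr5. Lrig1 and Cd34 could not be ordered. Lrig1 was the higher of the pair in 2 of 4 skins and 5 of 9 K5/K14 tumours, and Cd34 in 5 of 6 Ivl tumours. Among the other neighbours Ly6a and Cd44 stood in this order in 3 of 4 skins, Lgr6 and Lgr5 in 8 of 9 K5/K14 tumours, and the rest in every library of each group.

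The tumours with the most Lgr5 also held reads of muscle genes. Ivl 2 and Ivl 3 held 3944 and 1237 CPM summed over 6 skeletal muscle genes (Acta1, Ckm and others), K14 1 held 380, Ivl 6 held 425, K5 3 held 147 and K5 4 held 59.5 CPM, and these 6 also had the highest Lgr5 of the 15 tumours, from 4.58 to 25.5 CPM. The remaining 9 held 4.10 to 13.6 CPM of muscle genes and 0.375 to 2.75 CPM of Lgr5, and the 4 skins 2261 to 6552 CPM of muscle genes. Hair matrix and shaft genes (Krt35, Krt31, Msx2, Hoxc13, Foxn1) were likewise raised in Ivl 2, K14 1, Ivl 6 and Ivl 3, at 104 to 300 CPM against 21.7 to 39.0 CPM in the other 11 tumours. The 4 skins ranged from 20.0 to 667 CPM of these hair genes, while none of them held less than 22.3 CPM of Lgr5. These are values of 4 skins and are given as a description. The part of muscle or follicle tissue in the Lgr5 level was not tested. A sixth gene of the hair list, Krt85, was not analysed here.

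Across the 15 tumours the log2 CPM of each marker was set against the mean log2 CPM of 4 marker lists, 32 pairs in all (permutation test with 100000 resamples, two-sided, Benjamini-Hochberg over the 32). The permutations ran over all 15 tumours together, so differences between groups or batches can enter both r and p. Values over the 11 tumours outside the set of 4 carry no p. Lgr5 moved with the fibroblast list (r = 0.88, adjusted p = 0.00032; rho = 0.90, adjusted p = 0.00128) and with the leukocyte list (r = 0.86, adjusted p = 0.00032, from the smallest p the permutations can give, 1e-05; rho = 0.84). Without Ivl 1 and Ivl 3 the r for the fibroblast list was 0.81, and over the 11 tumours outside the set of 4 it was 0.91. Lgr6 moved with the fibroblast list (r = 0.81, adjusted p = 0.00173; rho = 0.84) and kept r = 0.77 over the 11, whereas its r with the leukocyte list was 0.83 over the 15 (adjusted p = 0.00173) and 0.42 over the 11. Lrig1 moved with the fibroblast list (r = 0.74, adjusted p = 0.00832; rho = 0.78), with r = 0.74 again over the 11. Its r with the endothelial list was 0.69 (adjusted p = 0.0192), but rho, 0.58, did not pass (adjusted p = 0.0892). Cd44 moved with the basal keratinocyte list (r = 0.79, adjusted p = 0.00173; rho = 0.79), and r was 0.79 without the 2 tumours farthest from the median of that list and 0.80 over the 11. The other 25 pairs had an adjusted p over 0.05. Among them was Cd34 with the endothelial list, whose r was -0.20 over the 15 tumours, 0.58 without Ivl 1 and Ivl 4, and 0.57 over the 11.

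**Figure D3:**
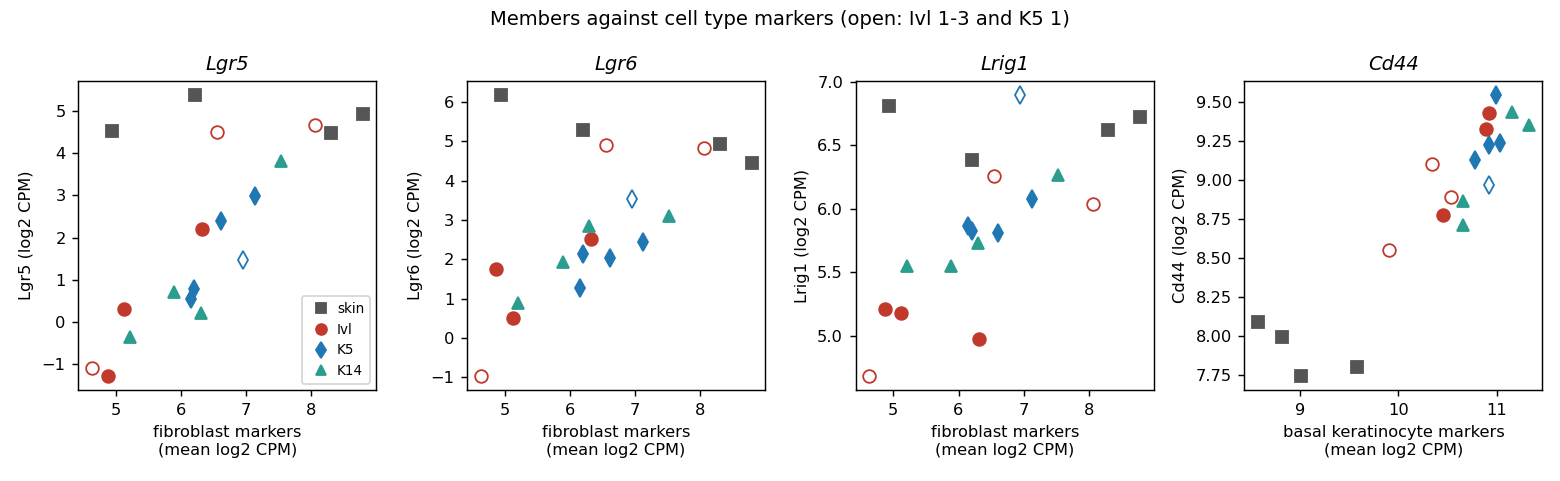
Lgr5, Lgr6 and Lrig1 against the mean log2 CPM of 8 fibroblast genes, and Cd44 against that of 6 basal keratinocyte genes, with 1 point per library and open points for Ivl 1, Ivl 2, Ivl 3 and K5 1. Over the 15 tumours r was 0.88, 0.81, 0.74 and 0.79, and the squares are the 4 skins, which entered no correlation.

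The genes most like each marker over the 15 tumours were sought among 11015 protein-coding genes with a mean over 5 CPM, and the best pair is given with r over the 15 and over the 11 tumours. Lgr5 was most like Fxyd1 (0.968 and 0.941) and Wnt11 (0.959 and 0.939), and Lgr6 like Gsn (0.949 and 0.838) and Lifr (0.949 and 0.759). Lrig1 was most like Adcy6 (0.966 and 0.91) and Esyt1 (0.961 and 0.942). Cd34 was most like Mllt6 (0.926 and 0.683) and Tut4 (0.919 and 0.695), the lowest values over the 11, where Ivl 1 is absent. Cd44 was most like Cdk17 (0.89 and 0.922) and Sf3b1 (0.887 and 0.932). Ly6a was most like P2ry1 (0.92 and 0.797) and Rplp2 (0.919 and 0.827), Ly6d like Dusp14 (0.962 and 0.833) and Ubtd1 (0.958 and 0.79), and Anxa1 like Myzap (0.917 and 0.968) and Ehf (0.913 and 0.901). These are the highest of many values, drawn from libraries that share depth and batch, and are given as a description.

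The partners of the LGR receptors were lower with them. Of 10 genes of the LGR and R-spondin pathway, 9 were lower and none higher in K5/K14 tumours, with a median log2 fold change of -1.86 beside -0.60 for all genes. The shares of all genes that were lower were 38.9% in K5/K14 and 15.5% in Ivl tumours. Lgr4, the broadly expressed receptor of the family, fell from 88.7 ± 14.4 CPM (SD, n = 4) to 16.6 ± 7.24 CPM (SD, n = 9), a log2 fold change of -2.42 ± 0.36 (adjusted p = 2.5e-05). Rspo2, a ligand of the family made in the dermal papilla, fell from 1.24 ± 1.28 to 0.0293 ± 0.0798 CPM (-5.25 ± 1.04, adjusted p = 0.00035). No K5/K14 library held more than 12 counts of Rspo2, so the size of that fold rests on very few counts. In Ivl tumours 3 of the 10 were lower (Lgr4 at -1.14, Axin2 at -1.02, and Rspo2) and none higher, with a median of -1.05. Within the 15 libraries 7 were lower, where 10463 of all 32031 genes were lower and 54.8% were called in either direction. All 6 Ivl libraries held 3 counts of Rspo2 or fewer, so no fitted fold is given. Lgr4 was also the 1 gene of the list that differed between tumours, higher in Ivl tumours by 1.28 ± 0.33 (adjusted p = 0.0468). Ivl 1 to 6 held 43.8, 54.0, 76.7, 17.8, 17.6 and 31.6 CPM against 4.83 to 32.2 CPM in K5/K14 tumours. The 3 highest were in the set of 4, and within the 15 libraries the difference was 0.31 (adjusted p = 0.708).

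Other genes of the bulge and hair germ shared this pattern. Of 12 genes, 10 were lower and 1 higher in K5/K14 tumours (median -1.57), and 3 lower and 1 higher in Ivl tumours (median -0.99, and -1.57 within the 15 libraries, where 9 were lower and none higher). The shares of all genes that were lower were 38.9% in K5/K14 and 15.5% in Ivl tumours. Within the 15 libraries 54.8% of all genes passed in Ivl tumours in either direction, and 10463 of 32031 were lower. The leading genes that fell in K5/K14 tumours were the transcription factors Tcf7l2, from 32.2 ± 3.36 to 9.82 ± 1.13 CPM (-1.71 ± 0.28, adjusted p = 4.8e-05), and Foxc1, from 50.7 ± 10.3 to 13.3 ± 5.96 CPM (-1.93 ± 0.38, adjusted p = 0.00037). Dkk3, a secreted protein of the Dickkopf family, was the 1 that rose (1.44 ± 0.26, adjusted p = 0.00017). In the mean log2 CPM over the list, Ivl 2 and Ivl 3 stood at 4.74 and 4.93, next to the skins (4.88 to 5.32) and above the other 13 tumours (2.89 to 4.17). Of 8 genes of the upper hair follicle, 2 were higher and 3 lower in K5/K14 tumours, with a median of -0.70 beside -0.60 for all genes. Both counts were near the shares over all genes, 23.2% higher and 38.9% lower. Krt17, a keratin of follicles and of wounded epidermis, rose from 470 ± 181 to 3176 ± 1480 CPM (2.76 ± 0.50, adjusted p = 0.00016). Plet1 rose as well (2.88 ± 0.71, adjusted p = 0.00237), while Gata6, a transcription factor of the sebaceous duct, and Defb6, a beta-defensin, fell (-3.29 ± 0.82 and -3.03 ± 0.79, adjusted p = 0.0024 and 0.00369). In Ivl tumours Krt17 (3.01) and Plet1 (1.87) were higher and none of the 8 was lower. Among the 15 libraries Krt17 was again higher (3.38), Plet1 no longer passed (adjusted p = 0.0508), and Gata6 (-2.82, adjusted p = 0.0377) and Cd200 (-1.62, adjusted p = 0.00837) were lower. Both Krt17 and Plet1 are thus counted among follicle genes but moved opposite to Lgr6 and Lrig1.

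Of the 6 relatives and targets of Lrig1, 3 were lower and 1 higher in K5/K14 tumours, with a median of -0.35. Over all genes 38.9% were lower and 23.2% higher with a median of -0.60, so the list did not stand out from that background by its counts. None passed in Ivl tumours (median -0.17), but within the 15 libraries Lrig2 (-0.79), Lrig3 (-1.16) and Egfr (-0.66) were lower, with a median of -0.38 beside -0.66 for all genes. Of all 32031 genes 10463 were lower in that fit, and 54.8% were called in either direction. Lrig3 fell by 1.33 ± 0.30 on the log2 scale (adjusted p = 0.00098) and Egfr, the receptor that LRIG1 restrains, from 192 ± 13.1 to 129.8 ± 18.97 CPM (-0.56 ± 0.15, adjusted p = 0.00415). Met, the receptor for hepatocyte growth factor, rose (0.68 ± 0.22, adjusted p = 0.0115). In Ivl tumours the values were -0.65 for Lrig3, -0.38 for Egfr and 0.41 for Met, with adjusted p from 0.0795 to 0.15.

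The Ly6 family rose with Ly6a and Ly6d. Of 14 other members (Ly6m was not analysed here), 10 were higher and 1 lower in K5/K14 tumours (median 1.90), against 23.2% and 38.9% of all genes. In Ivl tumours 9 were higher and none lower (median 1.70), against 20.4% and 15.5% of all genes. For 2 of them, Ly6f and Ly6g, every skin held 3 counts or fewer. With these at a bound set by 3 counts per library the medians were 1.59 and 1.39. Lypd3, a GPI-anchored protein of suprabasal and migrating keratinocytes, rose from 145 ± 16.5 CPM in skin to 1566 ± 269 CPM in K5/K14 tumours (3.43 ± 0.36, adjusted p = 1.5e-06) and to 1205 ± 492 CPM in Ivl tumours (3.05). Lypd5 rose in both (2.05 ± 0.26, adjusted p = 4.2e-06, and 1.83). Ly6c1, a marker of endothelium and monocytes, fell in K5/K14 tumours (-1.05 ± 0.43, adjusted p = 0.0411) and was at 0.00 in Ivl tumours, and within the 15 libraries the former no longer passed (-0.96, adjusted p = 0.0823). Gpihbp1, the capillary protein that carries lipoprotein lipase, was lower in Ivl than in K5/K14 tumours (-2.52 ± 0.54, adjusted p = 0.0283, and -2.87, adjusted p = 0.154, within the 15 libraries).

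Genes around hyaluronan, the ligand of CD44, were mostly higher in the tumours. Of 10 genes listed as CD44 ligands and splicing regulators, 9 were higher and 1 lower in K5/K14 tumours (median 1.22), against 23.2% and 38.9% of all genes. In Ivl tumours 8 were higher and none lower (median 1.05), against 20.4% and 15.5% of all genes. Cemip, which binds hyaluronan and drives its breakdown, rose from 12.3 ± 5.48 CPM to 122 ± 42.1 CPM (SD, n = 9) in K5/K14 and 122 ± 48.8 CPM (SD, n = 6) in Ivl tumours, 3.31 on the log2 scale in each (adjusted p = 9e-06 and 2.7e-05). Hyal2, a hyaluronidase, rose by 1.30 ± 0.14 (adjusted p = 1.5e-06) and 0.87. Has1, a hyaluronan synthase, fell in K5/K14 tumours from 1.53 ± 0.254 to 0.647 ± 0.285 CPM (-1.24 ± 0.44, adjusted p = 0.0202). The more abundant synthases rose there, Has2 from 3.99 to 50.2 CPM (3.65 ± 0.96, adjusted p = 0.00386) and Has3 from 20.7 to 182.6 CPM (3.14 ± 0.54, adjusted p = 0.00012). In Ivl tumours Has3 rose as well (2.65, adjusted p = 0.00094), while Has2 did not pass (adjusted p = 0.201). Esrp1 and Esrp2, splicing factors that act on Cd44 exons, are in the same list, and counts per gene do not show which Cd44 exons were used.

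Of 14 annexins, S100 partners and formyl peptide receptors related to Anxa1, 8 were higher and 1 lower in K5/K14 tumours (median 0.76). The share called in either direction was close to the 62.2% of all genes, of which 23.2% were higher and 38.9% lower. In Ivl tumours 6 were higher and 1 lower, against 20.4% and 15.5% of all genes. The Ivl median was 0.86, or 0.69 over 13 genes without Anxa10, whose groups both held 3 counts or fewer per library. S100a11, a calcium-binding partner of annexin A1, rose from 188 ± 49.8 to 857 ± 104 CPM in K5/K14 tumours (2.19 ± 0.24, adjusted p = 1.5e-06) and by 1.77 in Ivl tumours. Anxa9 rose (1.44 ± 0.18, adjusted p = 3.9e-06, and 1.03). Anxa6, the 1 annexin that fell, stood at 90.8 ± 41.5 CPM in skin and 43.6 ± 17.2 CPM in K5/K14 tumours (-1.06 ± 0.42, adjusted p = 0.037), and fell by 1.46 in Ivl tumours (adjusted p = 0.0211).

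**Figure D4:**
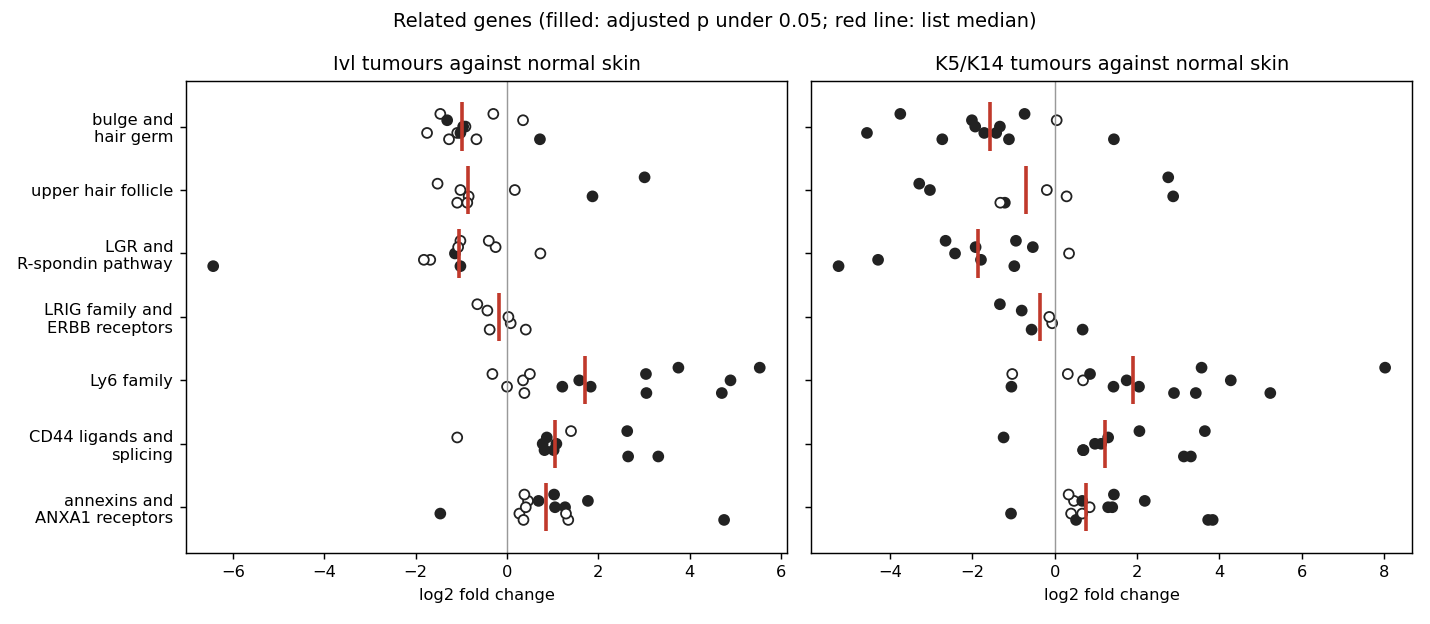
Log2 fold change against normal skin of every gene in the 7 lists of related genes, filled where the adjusted p was under 0.05, with a red line at the median of the list. In K5/K14 tumours the medians were -1.57 for bulge and hair germ, -1.86 for the LGR pathway, 1.90 for the Ly6 family and 1.22 for CD44 ligands and splicing. Single Ly6 points at the far right are genes with 3 counts or fewer in every skin.

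Lists of other cell types moved less evenly. In K5/K14 tumours the called genes were 2 higher and 1 lower of 8 endothelial, 0 and 2 of 8 fibroblast, 1 and 2 of 8 leukocyte, 1 and 1 of 6 mast cell, 0 and 2 of 6 adipocyte, 0 and 6 of 6 skeletal muscle and 0 and 2 of 5 hair matrix genes. All of these but the skeletal muscle list lay below the 62.2% of all genes called there (23.2% higher and 38.9% lower). In Ivl tumours 35.9% of all genes were called (20.4% higher and 15.5% lower). The counts of the lists there were, in the same order, 1 and 0, 0 and 0, 1 and 0, 1 and 1, 0 and 0, 0 and 0, and 0 and 0. Those low counts depended on the libraries used. In the 15 libraries they were 1 and 1, 0 and 4, 1 and 2, 1 and 1, 1 and 2, 0 and 1, and 0 and 2 in Ivl tumours, and the fibroblast, leukocyte and adipocyte counts were 0 and 3, 1 and 4, and 0 and 4 in K5/K14 tumours. Of all genes, 54.8% were called in Ivl and 66.1% in K5/K14 tumours within those libraries. All 6 basal keratinocyte genes were higher in K5/K14 tumours and 4 of 6 in Ivl tumours, whose sums began at 10720 CPM in Ivl 1, the library with the most Cd34 among tumours. The part of these keratinocyte marker levels in any of the 8 markers was not tested.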

How the data were processed

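Poly(A) RNA of 15 tumours and 4 normal skins was sequenced by the authors with a strand-specific kit, in 2 batches that the study describes without naming the libraries. The submitters' processing notes name FastQC 0.11.8, Trim Galore, HISAT2 2.1.0, featureCounts (Subread 1.6.3) and the build GRCm38 (mm10). The deposited values are estimated counts per gene: the authors adjusted the counts for batch with ComBat-seq, so they are whole numbers but no longer reads, and a difference between groups that is confounded with a batch can be lost or changed. Groups came from the sample titles.

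The 34807 gene identifiers were matched to GENCODE annotation of GRCm38 (34694 matched). Genes reaching 5 counts in any 1 library (32031) were fitted with edgeR 4.0.16 (R 4.3.3; TMM scaling, robust quasi-likelihood test), with Ivl, K5/K14 and skin as groups, or with 4 groups for K5 and K14 taken apart, and p-values were adjusted by Benjamini-Hochberg over all genes at 0.05. The script was tested on simulated data. Alternatives were DESeq2 1.42.0, its size factors in edgeR, no filter, edgeR's filterByExpr, a replicate block, a covariate for the 4 libraries with the batch trace, the 15 libraries without them, and each library left out in turn (19 fits). Correlations and levels used scipy 1.17.1 and pandas 2.3.3, and figures matplotlib 3.10.9. No pair of libraries agreed within sampling noise. Depth limits mainly the scarce genes (Rspo2, Ly6f, Ly6g, Anxa10).

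The markers and all lists were chosen with earlier results of these data known. The text names the 8 markers, from each related list the 2 leading called genes by adjusted p in each direction in K5/K14 tumours against skin and likewise in Ivl against K5/K14 tumours, and for each marker the 2 protein-coding genes with the highest r. Axin2, Cd200, Lrig2, Ly6f, Ly6g, Anxa10, Has2, Has3, Esrp1 and Esrp2 were named after their values were seen. Counts at or under 3 per library were treated as a floor.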

Additional observations from a re-analysis of the deposited data

Results flagged for a closer look

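In each group the highest and the lowest library of each marker were compared with the rest by Dixon's ratio, the gap to the nearest library divided by the range. Of 32 groups tested 2 passed the 95% value, and chance alone passes about 1 in 20. Lrig1 in K5 1 stood at 119.1 CPM, the highest of the 5 K5 tumours, with a ratio of 0.753 against 0.71. Ly6a in Ivl 2 stood at 135.0 CPM, the lowest of the 6 Ivl tumours, with a ratio of 0.831 against 0.625. Both libraries belong to the set of 4 with the batch trace, and its part in either value was not tested.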

How the results depend on the processing

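Under the alternatives no marker reversed a call. The number of genes called between Ivl tumours and skin went from 11515 to 17563 within the 15 libraries (9172 to 14756 with 1 library left out). Between Ivl and K5/K14 tumours it went from 756 to 2161 with DESeq2, 130 within the 15 libraries and 449 with the covariate (126 to 1327 with 1 library left out), and the markers called from 0 to 1 (Lrig1) within the 15 libraries and to 1 with the covariate. Between K5 and K14 tumours it went from 0 to 201 with DESeq2 and 17 within the 15 libraries. With 1 library left out, 5 to 6 markers were called in Ivl and 6 to 8 in K5/K14 tumours against skin, and 17751 to 20472 genes in the latter. The cause was not tested.

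Samples with the same replicate number did not deviate together (25 pairs, r from -0.49 to 0.446, median -0.029), so they share only a number. With a replicate block 46 genes were called between Ivl and K5/K14 tumours and 7700 between Ivl tumours and skin, and Cd34 (-0.70, adjusted p = 0.0681) and Lrig1 (-0.62, adjusted p = 0.0712) no longer passed in K5/K14 tumours (edgeR).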
